A study of Drosophila melanogaster with 22 samples.

Results

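The genes retn, Rx, ap, elB and noc encode DNA-binding proteins, and their RNA was followed through 22 libraries of larval Drosophila brain cells. They are 5 of the 15339 gene entries of the deposited tables, of which 14190 had a count. They were chosen by symbol as genes that stood higher in mushroom body neuroblasts, so the comparison of those neuroblasts with the others is given as a description, with no test. The genes retn, Rx, ap and elB were higher there in TPM, CPM and spike-in units, while noc was not: its levels in standard mushroom body libraries (those with no wait or wash) overlapped those of the antennal lobe, type II and pooled neuroblasts.

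Neuroblasts are the stem cells of the fly brain. Those of the mushroom body make the neurons of the memory centre and go on dividing longer than most others. Each lineage is known to be told apart by a set of transcription factors, and Rx is known to be needed for growth and survival of mushroom body neuroblasts. The 5 genes come from 3 kinds of factor: retn (retained, also called dead ringer) has an ARID DNA-binding domain, Rx (retinal homeobox) and ap (apterous) have homeodomains, and elB (elbow B) and noc (no ocelli) are a related pair of zinc finger repressors known to act with the corepressor Groucho.

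Cells carrying GFP were picked by a robotic sorter from dissociated brains, and RNA of 47 to 124 cells went into each library. Mushroom body neuroblasts have 3 libraries with a 2 h wait, 3 with 3 washes and 3 without either, called standard here. There are 3 libraries each of antennal lobe, type II and pooled neuroblasts (labelled as all neuroblasts), 2 of neurons and 2 of glia. All neuroblasts were taken 50 h after hatching, while the larvae that gave neurons and glia had reached the wandering stage, so age changed along with cell type. The sources used here give neither the strain and GFP driver of a group nor the purpose of the wait and the washes, nor the share of mushroom body cells in the pool. Nothing states that the libraries of a group came from separate animals or days, so p-values measure the spread between these samples, which may be technical. In pools of cells, fewer expressing cells and less RNA per cell cannot be told apart.

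Libraries held 3150371 to 14282246 counts in genes, with 8958 to 11779 genes detected, and no library was a copy of another. The groups held the markers of their labels. The markers ey and dac summed to 86.3 to 112 TPM in standard mushroom body libraries, against at most 37.0 TPM in antennal lobe and 18.2 TPM in type II libraries. The antennal lobe markers ems and mid summed to 214 to 284 TPM in antennal lobe neuroblasts and to at most 1.12 TPM in standard mushroom body libraries. The type II markers pnt, btd and Sp1 summed to 395 to 487 TPM in type II neuroblasts and to at most 22.8 TPM in standard mushroom body libraries. The neuron markers elav, n-syb, brp, Syt1 and cpx summed to 3406 to 4237 TPM in neurons and 66.4 to 88.5 TPM in glia. Of the glia markers, neurons held Gs2 (181 and 235 TPM) and Obp44a (73.3 and 162 TPM), but at most 1.75 TPM of repo, wrapper or moody. The pool held Obp44a at 89.9 to 109 TPM, against 15613 and 34665 TPM in glia. The first glia library also held neuroblast markers, with dpn at 149 TPM and mira at 101 TPM, against 9.42 and 6.76 TPM in the second. Levels are given in TPM, counts per gene length scaled to the same total in every library. Ratios between groups use CPM, counts scaled by library size and TMM factors but not by gene length.

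The ARID factor retn (FBgn0004795, chromosome 2R, 19520135 to 19542343, plus strand, dm3) had the highest level of the 5 in standard mushroom body neuroblasts, at 332, 249 and 314 TPM. It had 3.28, 2.40 and 2.1 TPM in antennal lobe neuroblasts, 4.82, 0.763 and 1.12 TPM in type II neuroblasts, and 21.7, 14.4 and 23.7 TPM in the pool. The standard mushroom body libraries lay above all others, and the pool lay between them and the antennal lobe and type II libraries, which overlapped. In neurons retn had 1.11 and 0 TPM, and in glia 0.577 and 3.45 TPM, within or below the range of antennal lobe and type II libraries. The mean in antennal lobe neuroblasts was 0.869% of the mushroom body mean, that in type II neuroblasts 0.750% and that in the pool 6.68%. Within a standard mushroom body library retn ranked 373rd to 491st among all gene entries. The log2 ratio of mean CPM was 6.84 for mushroom body over antennal lobe neuroblasts, 7.04 over type II neuroblasts and 3.95 over the pool. Over type II neuroblasts it was 8.31 without the first type II library, which held 49 of that group's retn counts, against 6 and 9 in the others.

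The paired-type homeobox gene Rx (FBgn0020617, chromosome 2R, 16804285 to 16824537, plus strand, dm3) had 74.1, 81.2 and 103 TPM in standard mushroom body neuroblasts. It had 0.415, 0.768 and 0.744 TPM in antennal lobe neuroblasts, 1.83, 1.01 and 1.16 TPM in type II neuroblasts, and 14.3, 5.18 and 9.90 TPM in the pool. The mushroom body libraries lay above all others, and the 4 neuroblast groups did not overlap one another. Neurons held 8.30 and 55.3 TPM of Rx, a wide gap between 2 libraries of 1 group, while glia held 1 count in each library. The neuron library with more Rx came from 74 cells, against 120 in the other. It held 23.8% of its counts outside annotated genes, against 15.6%, and 11.8% of its gene counts in 2 noncoding genes, against 31.9%. The part of these in the difference was not tested. The log2 ratio was 7.07 for mushroom body over antennal lobe neuroblasts, 6.0 over type II neuroblasts and 3.18 over the pool.

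The LIM-homeobox gene ap (FBgn0000099, chromosome 2R, 1594729 to 1614335, minus strand, dm3), a selector of dorsal wing identity and of some neuron types, had 77.1, 77.6 and 85.4 TPM in standard mushroom body neuroblasts. It had 2.49, 4.04 and 0.767 TPM in antennal lobe neuroblasts, 2.06, 0.760 and 0.373 TPM in type II neuroblasts, and 7.94, 5.03 and 11.6 TPM in the pool. Again no other library reached the mushroom body range, and antennal lobe and type II libraries overlapped. Neurons had 17.7 and 14.7 TPM of ap and glia 12.7 and 4.28 TPM, so ap was higher in neurons than in any antennal lobe, type II or pool library. The log2 ratio was 5.05 for mushroom body over antennal lobe neuroblasts, 6.21 over type II neuroblasts and 3.34 over the pool. Over type II neuroblasts it was 7.13 without the first type II library, and over antennal lobe neuroblasts it ran from 4.62 to 5.60 when libraries were left out in turn.

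Of the zinc finger pair, elB (FBgn0004858, chromosome 2L, 14390625 to 14409547, minus strand, dm3) had 235, 192 and 230 TPM in standard mushroom body neuroblasts. It had 20.4, 17.9 and 22.1 TPM in antennal lobe neuroblasts, 29.8, 25.7 and 25.5 TPM in type II neuroblasts, and 69.2, 28.8 and 46.0 TPM in the pool. The mushroom body libraries lay above all others here as well, but elB was well detected everywhere, with 30.4 and 76.3 TPM in neurons and 51.9 and 75.0 TPM in glia. The mean in antennal lobe neuroblasts was 9.2% of the mushroom body mean, a smaller gap than for retn, Rx or ap. The log2 ratio was 3.44 for mushroom body over antennal lobe neuroblasts, 3.00 over type II neuroblasts and 2.22 over the pool.

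Its partner noc (FBgn0005771, chromosome 2L, 14490862 to 14494019, plus strand, dm3) had 128, 94.2 and 106 TPM in standard mushroom body neuroblasts. It had 85.5, 96.0 and 98.3 TPM in antennal lobe neuroblasts, 81.4, 114 and 113 TPM in type II neuroblasts, and 113, 81.5 and 102 TPM in the pool. All 4 neuroblast groups overlapped. Glia, at 68.6 and 111 TPM, overlapped them too, and neurons had 60.5 and 86.1 TPM. The log2 ratio was 0.23 for mushroom body over antennal lobe neuroblasts, 0.07 over type II neuroblasts and 0.19 over the pool, and each turned negative when scaled on spike-ins and cell number, to -0.14, -1.28 and -0.46. That over type II neuroblasts was also -0.03 without the first mushroom body library and -0.05 without the first type II library. The choice of noc as a gene higher in the mushroom body was therefore not borne out by the standard libraries. The washed mushroom body libraries, at 189, 142 and 142 TPM, did lie above every library of another cell type.

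**Figure D1:**
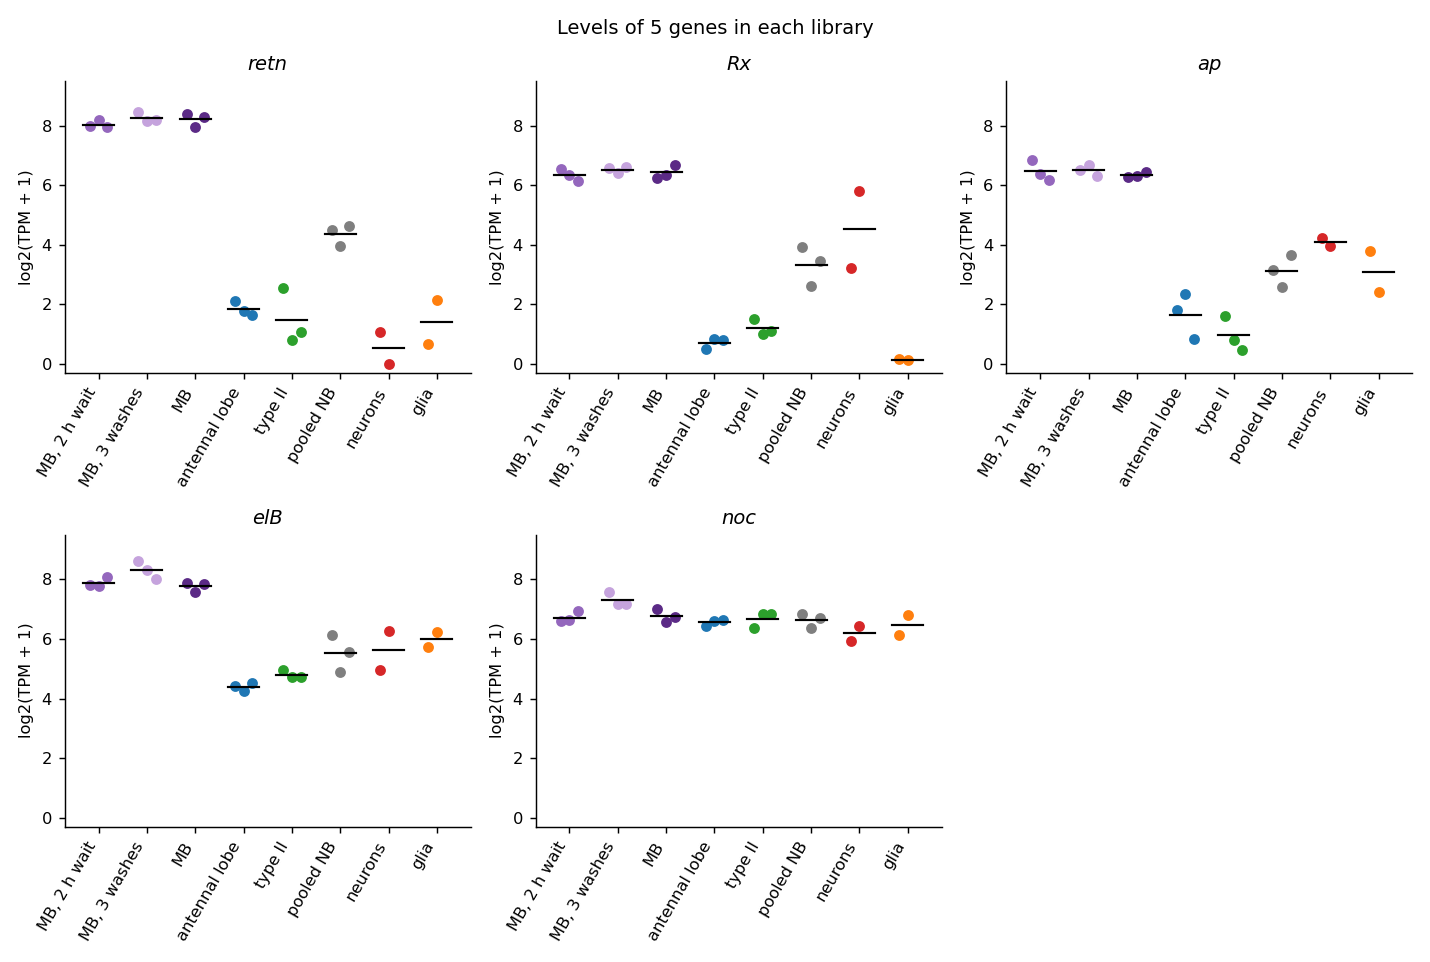
Level of each gene as log2(TPM + 1), by library (points) and group mean (bars); MB is mushroom body neuroblasts, NB neuroblasts. The mushroom body libraries stand above every other library for retn, Rx, ap and elB, while for noc the standard ones lie among the others.

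With standard mushroom body libraries first in each case, 4 of the 5 genes had TPM that did not overlap, on the high side, with antennal lobe, type II or pooled neuroblasts. Over all genes tested, 15.4%, 17.1% and 16.8% separated in that way in the 3 comparisons. Since the genes were picked for this contrast, nothing is read from the count. Of the 5, elB had a log2 ratio of at least 2.22 in each of the 3 comparisons and noc one of at most 0.23.

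In order of mean level over the 8 groups, the 3 mushroom body groups came first for retn, Rx, ap and elB. For retn the pool followed, apart from its neighbours on both sides, and then antennal lobe neuroblasts, type II neuroblasts, glia and neurons, each overlapping the next. For Rx the neurons and the pool overlapped in second place, followed by type II neuroblasts, antennal lobe neuroblasts and glia without overlap. For ap the neurons came next without overlap, then glia and the pool, which overlapped, then antennal lobe and type II neuroblasts, which overlapped. For elB glia, neurons, the pool and type II neuroblasts followed, each overlapping the next, and antennal lobe neuroblasts were lowest without overlap. For noc the washed mushroom body libraries came first without overlap, and the other 7 groups each overlapped the next.

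The pair elB and noc lie 81314 bases apart on chromosome 2L, with the annotated genes pburs, Cpr35B and CG15283 between them. Their balance within a library differed between the mushroom body and the rest. The ratio of noc TPM to elB TPM was 0.444 ± 0.0134 with the wait, 0.494 ± 0.0570 with the washes and 0.499 ± 0.0439 in standard mushroom body neuroblasts (SD, n = 3 each). It was 4.66 ± 0.621 in antennal lobe neuroblasts, 3.86 ± 0.981 in type II neuroblasts and 2.23 ± 0.602 in the pool (SD, n = 3 each), and 2 libraries each gave 1.56 ± 0.608 for neurons and 1.40 ± 0.109 for glia (SD). In all 9 mushroom body libraries elB was above noc, and in all 13 others noc was above elB. The ratio needs no scaling between libraries, but elB was picked for its high level in mushroom body neuroblasts. Which of the 9 libraries counted in that choice is not recorded, so the ratio in all of them is a description.

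**Figure D2:**
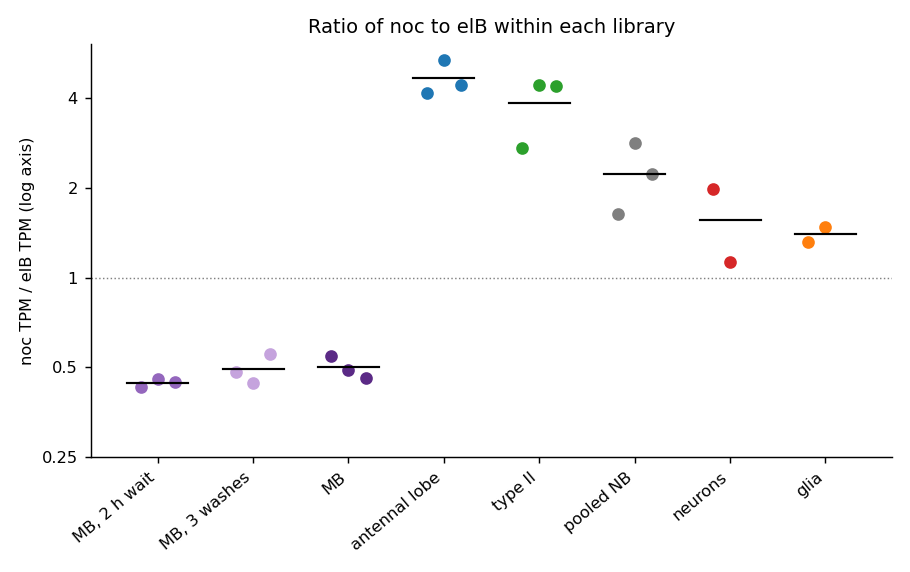
Ratio of noc TPM to elB TPM in each library (points) with group means (bars), on a log axis; the dotted line marks equal levels. All 9 mushroom body libraries lie below the line and the 13 others above it.

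Each library had received a spike-in, so levels could also be set per cell, as counts per spike-in count and cell with the standard mushroom body mean at 1. The scale allows for the spike-in volume, which was 2.4 and 1.48 µl in the neuron libraries and 1 µl in the others. On this scale retn stood at 0.0114 ± 0.00317 in antennal lobe neuroblasts, 0.0297 ± 0.0415 in type II neuroblasts and 0.101 ± 0.0227 in the pool (SD, n = 3 each), against 1.00 ± 0.301 in standard mushroom body neuroblasts. The gene elB stood at 0.121 ± 0.0228 in antennal lobe neuroblasts, 0.361 ± 0.256 in type II neuroblasts and 0.338 ± 0.160 in the pool, against 1.00 ± 0.260 in standard mushroom body neuroblasts. The gene noc stood at 1.10 ± 0.112 in antennal lobe neuroblasts, 2.43 ± 0.973 in type II neuroblasts and 1.37 ± 0.266 in the pool, against 1.00 ± 0.329 in standard mushroom body neuroblasts. Per cell, the mean of noc was highest in type II neuroblasts, close to 2.41 ± 0.428 in the washed mushroom body libraries (SD, n = 3), which overlapped them. The 3 type II libraries (1.85 to 3.56) lay above the standard mushroom body libraries (0.714 to 1.36). RNA per cell is scaled on the same spike-in counts, so it is no separate measure. With the neuron mean at 1 it was 1.699 ± 0.342 in standard mushroom body and 5.26 ± 3.13 in type II neuroblasts. The first type II library alone stood at 8.87. That library also had the highest retn, Rx, ap and elB of its group. With this scaling the median log2 change over all genes tested was -0.36 for mushroom body over antennal lobe neuroblasts, -1.44 over type II neuroblasts and -0.68 over the pool. The log2 ratios of retn, Rx, ap and elB over type II neuroblasts were then 5.07, 4.31, 4.31 and 1.47, and those over the pool 3.31, 2.49, 2.68 and 1.56.

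**Figure D3:**
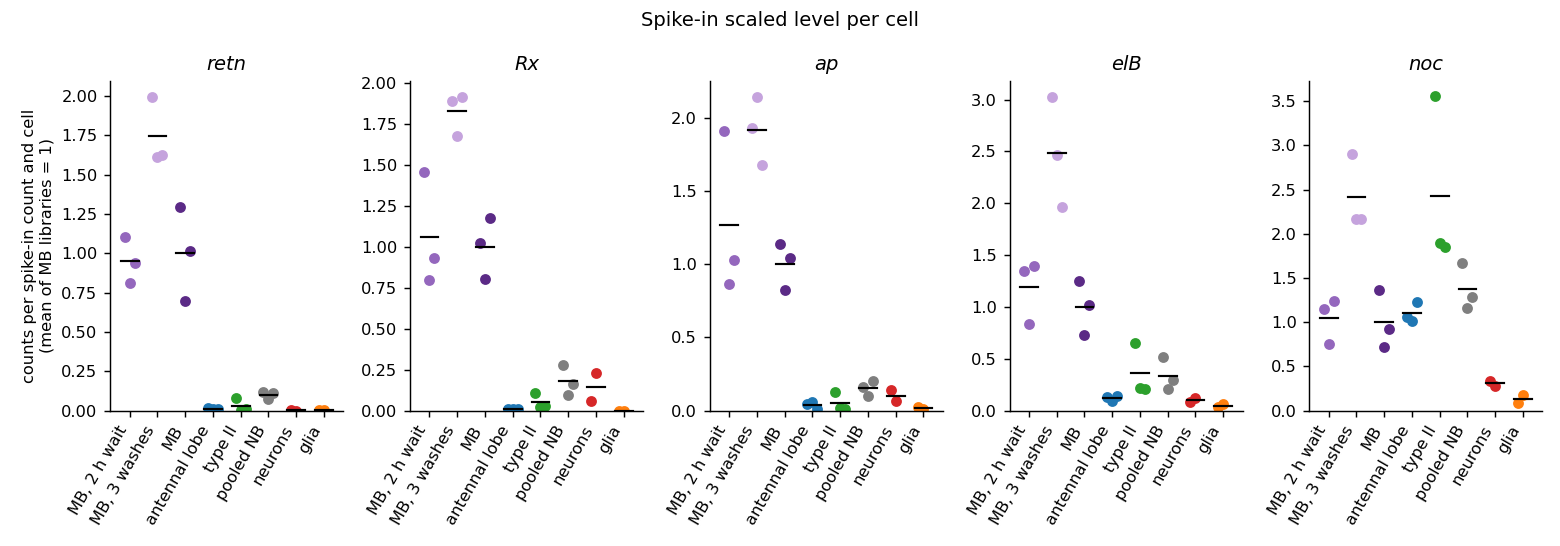
Counts per spike-in count and cell, relative to the mean of the standard mushroom body libraries, by library (points) and group mean (bars). For noc the type II libraries (1.85 to 3.56) lie above the standard mushroom body libraries (0.714 to 1.36), while retn, Rx, ap and elB stay highest in the mushroom body.

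The wait and the wash libraries were set against the standard ones. The genes were chosen for high levels in mushroom body neuroblasts, with no record of which of these 9 libraries counted, so the comparisons are not independent of the choice. The gene retn had 250, 289 and 247 TPM with the wait and 353, 287 and 290 TPM with the washes. Rx had 93.1, 80.0 and 69.0 TPM with the wait and 94.1, 84.1 and 96.3 TPM with the washes. Levels of ap were 114, 81.2 and 71.3 TPM with the wait and 90.2, 101 and 79.0 TPM with the washes. For these 3 genes both sets overlapped the standard libraries. The zinc finger gene elB had 222, 217 and 269 TPM with the wait and 391, 320 and 256 TPM with the washes. Its relative noc had 95.6, 99.0 and 120 TPM with the wait and 189, 142 and 142 TPM with the washes. For both, the libraries with the wait overlapped the standard ones, and the washed libraries lay above the standard ones, a separation seen in 6.92% of all genes tested.

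None of the 5 passed with edgeR's quasi-likelihood test after Benjamini-Hochberg adjustment in the wait over standard comparison (0 at an unadjusted p under 0.05, 0 by DESeq2 and 0 by limma), where 0.0228% of all genes were called. The log2 changes ran from -0.16 ± 0.13 for retn to 0.17 ± 0.18 for ap (SE), and the 95% intervals reached at most 0.53 in size. In the wash over standard comparison 0 passed as well, where 0.833% of all genes were called, with 2 at an unadjusted p under 0.05, 1 by DESeq2 and 0 by limma. Those 2 were the zinc finger pair. The gene elB had a log2 change of 0.56 ± 0.16 (95% interval 0.23 to 0.88, edgeR adjusted p = 0.129) and noc one of 0.53 ± 0.17 (0.17 to 0.89, edgeR adjusted p = 0.261). For wait over wash 0 passed, against 0.0342% of all genes, with 2 at an unadjusted p under 0.05 and 0 by DESeq2 or limma; elB differed by -0.42 ± 0.16 (adjusted p = 0.557) and noc by -0.56 ± 0.17 (adjusted p = 0.478). The lack of a call does not show equal levels, since the intervals leave room for changes of the sizes just given. As said above, these comparisons, and so their p-values, are not independent of the choice of the genes. With spike-in scaling all 5 passed in wash over standard, where the median log2 change of all genes was 0.77 and those of retn, Rx and ap 0.80, 0.87 and 0.94; washed libraries held 3.02 ± 0.110 RNA per cell, against 1.699 ± 0.342 in standard ones (neuron mean 1; SD, n = 3 each).

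Antennal lobe and type II neuroblasts were set against the pool and each other. The libraries of these groups were on the comparison side when the genes were chosen, and a pool of all neuroblasts may hold mushroom body cells, so the changes over the pool are given as a description, with no test. In antennal lobe neuroblasts over the pool the log2 change fitted by edgeR was -3.86 ± 0.43 for Rx, -2.89 ± 0.44 for retn, -1.72 ± 0.48 for ap, -1.21 ± 0.24 for elB and -0.04 ± 0.18 for noc (SE, n = 3 each). In type II neuroblasts over the pool it was -3.0 ± 0.46 for retn, -2.79 ± 0.55 for ap, -2.78 ± 0.41 for Rx, -0.77 ± 0.24 for elB and 0.12 ± 0.18 for noc. Without the first type II library the change of retn over the pool was -4.34 and that of ap -3.78. With spike-in scaling that of elB was 0.08.

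Both antennal lobe and type II neuroblasts were on the comparison side of the choice, so a test between them is not independent of it. Summed counts in the 2 groups were low for retn (101 and 64), Rx (19 and 27) and ap (92 and 30). The lack of a call therefore does not show equal levels. Between the 2 groups none of the 5 passed with edgeR, where 11.4% of all genes were called. There was 1 at an unadjusted p under 0.05 and none by DESeq2 or limma. The 1 was Rx, with a log2 change of -1.08 ± 0.51 (95% interval -2.14 to -0.02, adjusted p = 0.185). For retn it was 0.11 ± 0.53 (-1.05 to 1.26). Without the first type II library it was 1.47 (adjusted p = 0.0178), without the second -0.25, and with spike-in scaling -1.24 (adjusted p = 0.0351). For ap it was 1.07 ± 0.59, or -0.20 with spike-in scaling, for elB -0.44 ± 0.24 and for noc -0.16 ± 0.18.

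Pooled neuroblasts, neurons and glia were set against each other, the pool differing from both others in age as well. The pool was on the comparison side when the genes were chosen, and it may hold mushroom body cells. Comparisons with it are therefore not independent of the choice and do not show what holds for stem cells in general. The mean of Rx was 9.79 TPM in the pool, against 0.642 TPM in antennal lobe and 1.33 TPM in type II neuroblasts. By edgeR, Rx was the only one of the 5 to pass here. Against neurons 0 of the 5 passed with edgeR, where 24.7% of all genes were called, with 1 at an unadjusted p under 0.05 and 1 each by DESeq2 and limma. That gene was retn, at 319, 214 and 330 counts in the pool and 8 and 0 counts in neurons (log2 change 4.96 ± 1.72, SE, edgeR adjusted p = 0.0665; DESeq2 adjusted p = 0.00193). It passed without the first neuron library (adjusted p = 0.0164) and without the first or second glia library, which share the fit (adjusted p = 0.0458 and 0.0462). For Rx the change was -1.62 ± 0.97 (adjusted p = 0.251) and for ap -1.09 ± 0.86 (adjusted p = 0.383). That of Rx was -2.40 without the first neuron library and -0.00238 without the second. For elB and noc it was -0.14 ± 0.56 and 0.38 ± 0.42, and elB turned to 0.42 without the second neuron library and 0.13 without the second pool library. With spike-in scaling Rx, ap and elB had positive changes of 0.28, 0.61 and 1.69 that did not pass (adjusted p = 0.822, 0.594 and 0.056).

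Against glia 1 of the 5 passed, Rx, which was higher in the pool, where 20.6% of all genes were called in either direction. The pool libraries had 320 Rx counts in all and the glia libraries 2, a ratio of 91.1 per gene count with a 95% interval of 25.0 to 755 that covers counting error only (exact binomial). The edgeR log2 change was 6.14 ± 1.40 (SE, adjusted p = 0.0171). It lost the call without the first or the third pool library or either glia library (adjusted p = 0.0641, 0.0571, 0.0536 and 0.0603). For retn the change was 3.07 ± 1.52 (adjusted p = 0.178), for ap -0.33 ± 0.87, for elB -0.64 ± 0.56 and for noc -0.10 ± 0.41. Without the first glia library ap had 0.76 and retn 2.35. Without the second, noc had 0.28 and retn 4.84, and without the second pool library noc had 0.03. With spike-in scaling all 5 passed as higher in the pool, where the median log2 change of all genes was 3.45 and those of ap, elB and noc 3.31, 2.87 and 3.40, a turn of sign for those 3.

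Neurons were higher than glia in Rx as well, again 1 of 5, where 9.37% of all genes were called higher. They had 481 Rx counts, against 2 in glia, a ratio of 286 (95% interval 78.9 to 2372, counting error only). The edgeR log2 change was 7.76 ± 1.51 (adjusted p = 0.00896). It was 6.18 without the second neuron library and 8.58 without the first, and it passed both times (adjusted p = 0.0292 and 0.00569). The other 4 genes had changes of -1.89 ± 1.60 for retn, 0.76 ± 0.96 for ap, -0.50 ± 0.62 for elB and -0.48 ± 0.46 for noc. The change of retn was -7.88 without the first neuron library, which leaves neurons with 0 counts so that the value is no bound. It was -0.79 without the second neuron library, and -2.69 and -0.20 without the first and the second glia library. That of ap was 1.82 without the first glia library and 0.17 without the second. With spike-in scaling elB and noc had positive changes of 1.18 and 1.24 that did not pass (adjusted p = 0.189 and 0.092).

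**Figure D4:**
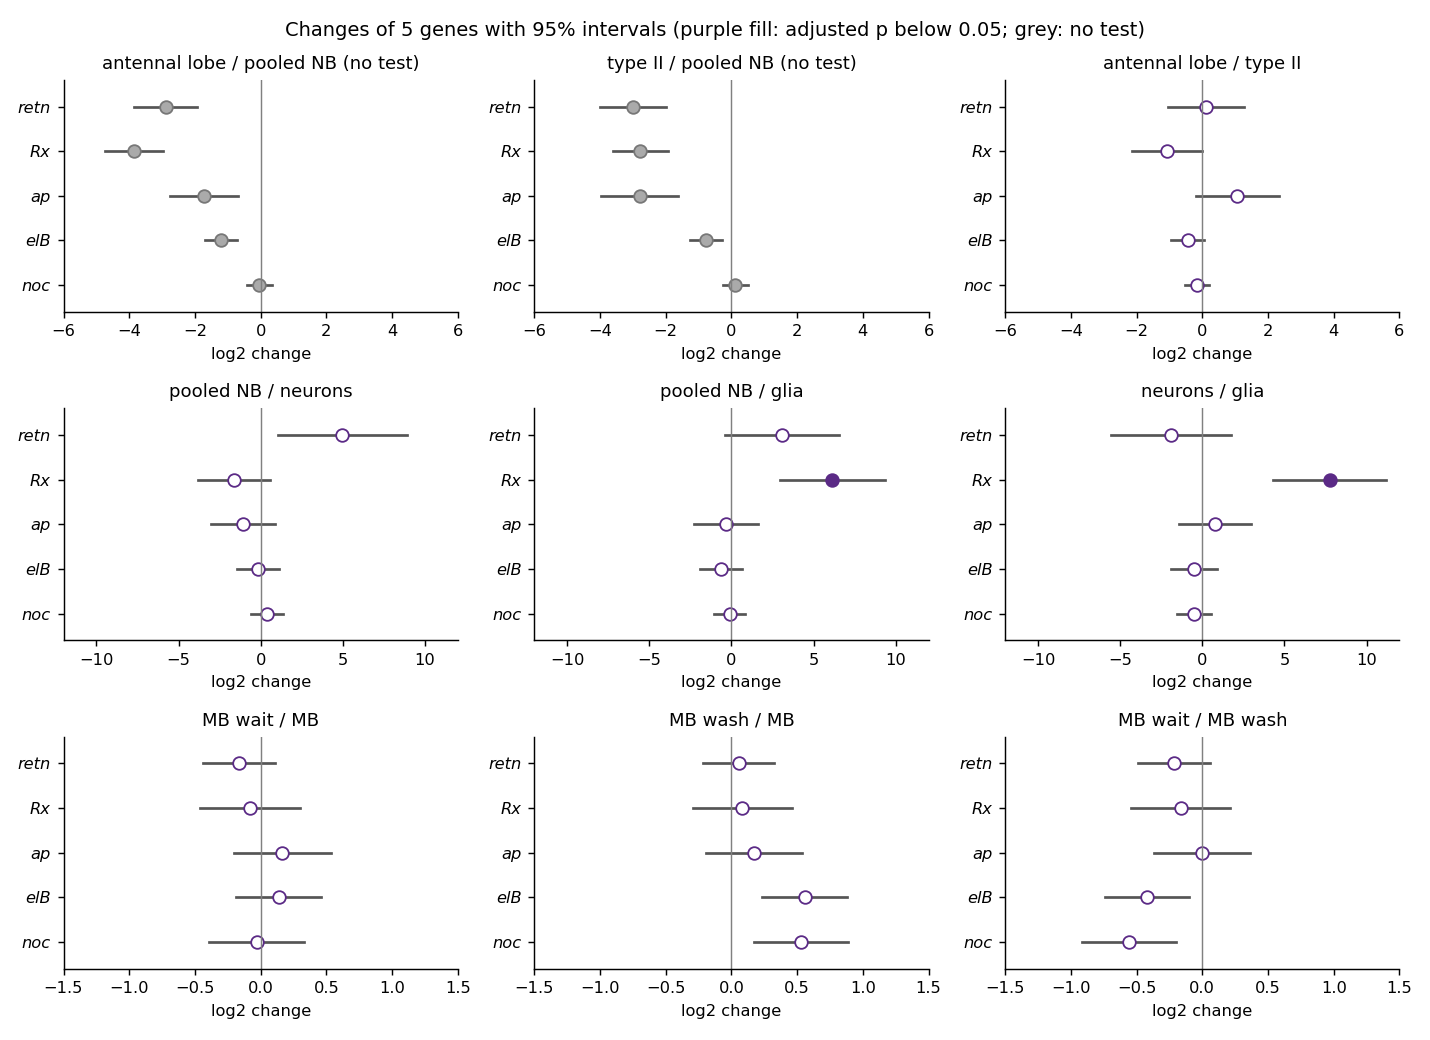
Log2 changes from edgeR with 95% intervals for the 5 genes in 9 comparisons, named above each panel as first over second group; purple filled points passed at an adjusted p below 0.05, open ones did not, and grey ones are given with no test. Scales differ between rows of panels. The genes retn, Rx and ap lie left of 0 in antennal lobe and type II neuroblasts over the pool, and Rx lies right of 0 over glia.

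The neighbours of each gene on the chromosome were looked at next. They are not among the 5 chosen genes. However, hbn and otp also belong to the list of Rx relatives below, drawn up with earlier results of these data known. Their tests are therefore not independent of those results. Along the stretch from otp to hbn, which holds 8 annotated genes with Rx in the middle, hbn and Act57B rose in the mushroom body as well. The homeobox gene hbn (homeobrain), a relative of Rx, had 57.2, 55.0 and 77.2 TPM in standard mushroom body neuroblasts. It had 0.933, 0.198 and 1.00 TPM in antennal lobe neuroblasts, 0.941, 1.82 and 3.87 TPM in type II neuroblasts, and 13.5, 4.98 and 17.3 TPM in the pool. No library of another cell type reached the mushroom body range. The log2 change by edgeR was 6.39 ± 0.64 over antennal lobe neuroblasts (SE, adjusted p = 1.08e-07), 4.84 ± 0.58 over type II neuroblasts (adjusted p = 2.14e-06) and 2.45 ± 0.49 over the pool (adjusted p = 0.00142). It was 5.49 over type II neuroblasts without the third of their libraries, and the change over the pool was lost with spike-in scaling (1.79, adjusted p = 0.0512).

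Between Rx and hbn lies the actin gene Act57B, 6995 bases from the end of Rx. It had 16.6, 9.29 and 11.4 TPM in standard mushroom body neuroblasts and at most 0.972 TPM in any antennal lobe, type II or pool library. Its log2 change was 5.94 ± 1.25 over antennal lobe neuroblasts (SE, edgeR adjusted p = 0.002), 6.33 ± 1.33 over type II neuroblasts (adjusted p = 0.00238) and 5.02 ± 1.16 over the pool (adjusted p = 0.00464). Type II neuroblasts held 2 counts of Act57B, against 142 in the mushroom body, a ratio of 97.1 with a 95% interval of 26.4 to 809 (counting error only). Without the first type II library its change over type II neuroblasts was 9.25 (adjusted p = 0.00383), and without the first pool library that over the pool was 7.27 (adjusted p = 0.00144) and without the second 4.42 (adjusted p = 0.0182). With so few counts in those groups the fitted changes depend on the prior count and are no bounds. On the other side of Rx, otp, another homeobox gene of the stretch, had 3.49 ± 1.09 TPM in standard mushroom body neuroblasts and 39.2 ± 4.89 TPM in neurons (SD, n = 3 and n = 2). Its highest level was thus in neurons, and it did not pass in any of the 3 mushroom body comparisons.

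**Figure D5:**
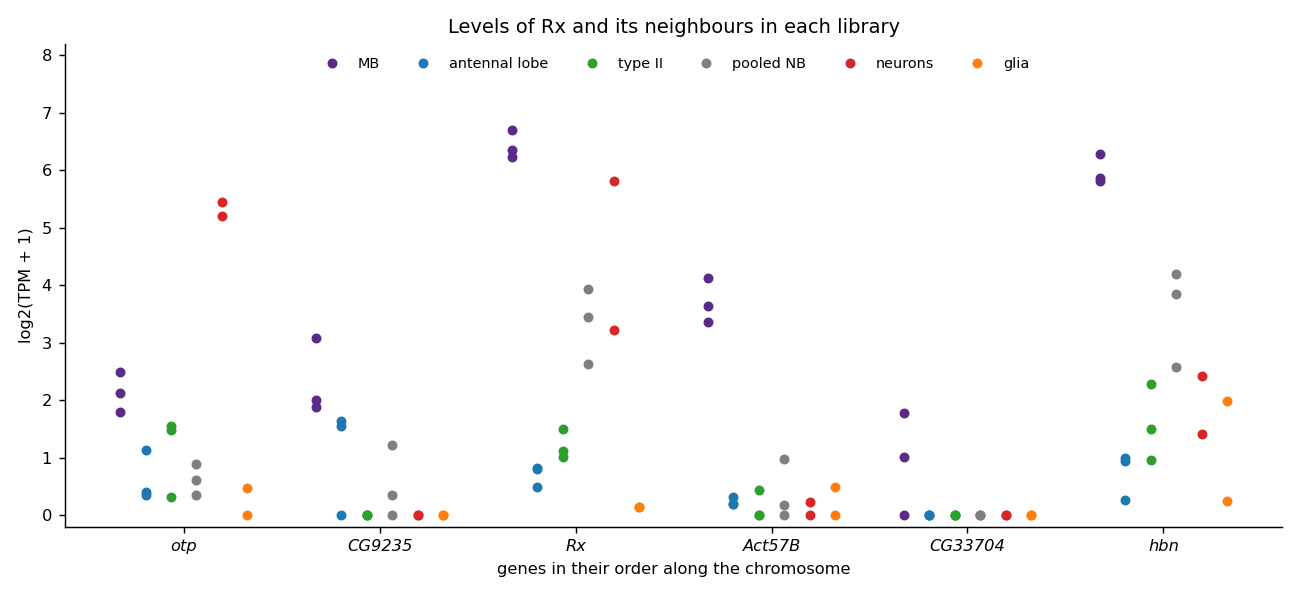
Level of Rx and the other protein-coding genes of the stretch from otp to hbn as log2(TPM + 1), in their order on the chromosome, with 1 point per library. In standard mushroom body (MB) libraries Rx, Act57B and hbn lie above the antennal lobe, type II and pool libraries, and otp lies highest in neurons.

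Beside retn, Pde8, a cyclic nucleotide phosphodiesterase gene 21984 bases away, had 45.3, 40.5 and 55.8 TPM in standard mushroom body neuroblasts. It averaged 17.8 ± 1.47 TPM in antennal lobe neuroblasts, 16.9 ± 4.24 TPM in type II neuroblasts and 28.4 ± 4.43 TPM in the pool (SD, n = 3 each). The log2 change was 1.41 ± 0.20, 1.48 ± 0.20 and 0.79 ± 0.20 in these comparisons (SE, edgeR adjusted p = 2.65e-05, 1.66e-05 and 0.00845). The last was lost without the third mushroom body library (log2 change 0.61, adjusted p = 0.0866), and all 3 were lost with spike-in scaling. The gene CG42241 between them rose over type II neuroblasts alone (2.84 ± 0.90, adjusted p = 0.0448), a call lost without the third pool library, the first or the third mushroom body library or the first or second type II library (adjusted p = 0.0554, 0.132, 0.126, 0.145 and 0.158), and it was 4.78 without the third type II library. Of the neighbours of ap, CG17337 was lower in the mushroom body than in the pool (-0.74 ± 0.18, adjusted p = 0.00536). Of those of elB, spel1 was lower than in the pool (-0.92 ± 0.27, adjusted p = 0.0227), a call lost without the second pool library or the second or the third mushroom body library (adjusted p = 0.0919, 0.0791 and 0.0823). Of the neighbours of noc, Cpr35B alone had enough counts to be tested, and it did not pass in any of the 3 comparisons. None of the 5 genes overlapped another gene in the annotation used.

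Other genes of the same pathways, 47 in 6 lists, were compared between standard mushroom body and the other neuroblasts, and 37 passed the filter on low counts. Over antennal lobe neuroblasts 6 rose and 6 fell (5.88% and 5.96% of all genes), over type II neuroblasts 7 rose and 4 fell (5.63% and 4.72%), and over the pool 6 rose and 5 fell (8.92% and 5.46%). The median log2 change of the 37 was 0.05, 0.50 and 0.18, beside 0.03, 0.03 and -0.01 over all genes. The lists were drawn up with earlier results of these data known.

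Among 8 genes of mushroom body and eye determination, the tested pattern was split. Over antennal lobe neuroblasts ey, toy, dac and tll rose and eya and so fell, and the median was 0.58. The orphan nuclear receptor tll had 368 ± 44.5 TPM in mushroom body and 3.40 ± 0.279 TPM in antennal lobe neuroblasts (SD, n = 3 each; log2 change 6.74 ± 0.22, SE, edgeR adjusted p = 2.29e-17). The Pax6 genes toy and ey rose by 2.42 ± 0.28 (adjusted p = 1.46e-06) and 1.39 ± 0.41 (adjusted p = 0.0413), though ey passed in 6 of 18 alternatives and was lost without any 1 of the mushroom body or antennal lobe libraries (adjusted p of 0.0913 to 0.182), without the first or the third pool library (0.0755 and 0.0534) or without the second type II library (0.073). The dac call was lost without the third mushroom body library (1.40, adjusted p = 0.0886) and the eya call without the first or second (adjusted p = 0.066 and 0.0747). The change of eya was -4.78 with all libraries, -3.72 without the second antennal lobe library and -6.33 without the third mushroom body library, and that of so was -2.69 and, without the first mushroom body library, -3.62. Over type II neuroblasts ey, toy and dac rose and eya, so and Optix fell, with a median of -0.24. There tll did not pass (-0.15 ± 0.16, SE, edgeR adjusted p = 0.628). Here dac rose by 5.64 ± 0.61 (adjusted p = 9.99e-07) and toy by 3.79 ± 0.32 (adjusted p = 4.15e-09). The eye factor eya had 0.267 ± 0.305 TPM in mushroom body and 84.3 ± 8.90 TPM in type II neuroblasts (log2 change -8.19 ± 0.95, adjusted p = 0.000218), and was -9.73 without the third mushroom body library. The eye factor Optix had 1 count in mushroom body and 587 in type II neuroblasts, a ratio of 0.00233 with a 95% interval of 5.89e-05 to 0.0130 (counting error only). The gene so fell by 2.28 over type II neuroblasts (log2, edgeR adjusted p = 0.00331), or by 3.21 without the first mushroom body library. Over the pool ey (2.08 ± 0.42, adjusted p = 0.00431) and tll (1.04 ± 0.16, adjusted p = 7.92e-05) rose and eya (-6.10 ± 0.97, adjusted p = 0.00181) and Optix (-6.35 ± 1.04, adjusted p = 0.000202) fell. Without the third mushroom body library eya was -7.65, and without the first Optix was -8.79. The tll call was lost with spike-in scaling (0.34, adjusted p = 0.554). Neither toy (-0.35 ± 0.26, SE, edgeR adjusted p = 0.414) nor dac (1.18 ± 0.46, adjusted p = 0.0881) passed over the pool.

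Among 18 homeobox relatives of Rx, 10 passed the filter on low counts. The list's 2 that rose over antennal lobe and type II neuroblasts were hbn and oc, and over the pool hbn rose alone; none fell. The gene oc (orthodenticle), a head gap gene, had 142 ± 13.9 TPM in mushroom body neuroblasts, 4.85 ± 2.97 TPM in antennal lobe and 0.969 ± 1.49 TPM in type II neuroblasts (SD, n = 3 each). Its log2 change was 4.84 ± 0.69 (SE, edgeR adjusted p = 0.00206) and 7.01 ± 0.83 (adjusted p = 0.000802), with 10.24 over type II neuroblasts when the first type II library was left out. The median of the list was 1.08, 0.61 and 0.74 in the 3 comparisons.

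Of 9 genes of the LIM complex and LIM-homeobox family, to which the partners of ap belong, 7 could be tested: 0 rose and 1 fell over antennal lobe neuroblasts, 1 and 0 over type II neuroblasts, and 1 and 1 over the pool. The cofactor Chi, which ap protein needs in the wing, had 47.0 ± 20.9 TPM in mushroom body, 37.2 ± 2.03 in antennal lobe, 31.3 ± 8.40 in type II and 40.2 ± 3.73 TPM in pooled neuroblasts (SD, n = 3 each) and did not pass. The cofactor Ssdp fell over antennal lobe neuroblasts (-0.75 ± 0.14, SE, edgeR adjusted p = 0.000844) and the pool (-0.48 ± 0.14, adjusted p = 0.0273). The second call was lost without the first or the third pool library or the second mushroom body library (adjusted p = 0.156, 0.058 and 0.111). The LIM-homeobox gene Awh rose over type II neuroblasts (3.77 ± 0.96, adjusted p = 0.0149) and the pool (3.24 ± 0.88, adjusted p = 0.0176), at a mean of 9.52 TPM in the mushroom body. Both were lost without the third mushroom body library (adjusted p = 0.0699 and 0.0879). The first was also lost without the second or the third type II library (0.0612 and 0.0709), and the second without the second pool library (0.0621). The first was 5.12 without the first type II library and the second 5.45 without the first pool library.

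Of 5 genes that ap acts on in the wing, Ser, fng and trn did not pass in any comparison. The homeobox gene Dr fell over antennal lobe neuroblasts (1.35 ± 0.189 TPM in mushroom body, 71.1 ± 16.3 TPM in antennal lobe; log2 change -5.70 ± 0.46, edgeR adjusted p = 2.56e-09) and over the pool (-3.18 ± 0.45, adjusted p = 2.14e-05). The adhesion gene caps rose over the pool (2.87 ± 0.82, adjusted p = 0.0197), a call lost without the second or the third pool library or the first mushroom body library (adjusted p = 0.0681, 0.0766 and 0.136), and the change was 3.81 without the first pool library.

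Of the partners of elB and noc, gro, the corepressor, had 146 ± 10.1 TPM in mushroom body, 174 ± 17.3 in antennal lobe, 126 ± 13.1 in type II and 154 ± 4.98 TPM in pooled neuroblasts (SD, n = 3 each) and did not pass. The homeobox gene hth fell in all 3 comparisons, with 14.4 ± 5.90 TPM in mushroom body, 489 ± 54.9 in antennal lobe, 84.7 ± 11.2 in type II and 105 ± 4.02 TPM in pooled neuroblasts. Its log2 changes were -5.10 ± 0.26, -2.59 ± 0.24 and -2.83 ± 0.24 (SE, edgeR adjusted p = 4.11e-09, 3.01e-06 and 1.53e-06). Its partner exd fell over antennal lobe neuroblasts (-0.73 ± 0.19, adjusted p = 0.0127; 0.105 without the second mushroom body library). The signal gene wg did not pass, and dpp passed over the pool alone (3.33 ± 1.10, adjusted p = 0.0422), at 2.72 TPM in the mushroom body and 0.263 TPM in the pool. The dpp call was lost in each fit without a pool library or without the first or second mushroom body library (adjusted p = 0.0677, 0.111, 0.139, 0.204 and 0.0818). Of the ARID relatives of retn, osa did not pass, and lid rose over type II neuroblasts alone (0.50 ± 0.14, adjusted p = 0.0238), a change that turned to -1.01 with spike-in scaling and was lost without the first or second mushroom body or the second or the third type II library (0.0691, 0.0905, 0.0704 and 0.117).

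Likeness of pattern was measured as Pearson's r between group means of log2(CPM + 1) over the 8 groups, among 6628 genes. The points share the libraries, and 3 of the 8 are mushroom body groups, so r is given as a description. The closest gene to retn was Cpr76Bc, of a cuticle protein family (r = 0.985), followed by CG13741, CG8852, hbn and CG1602 (0.973 to 0.968). The closest to Rx were oc (0.938), Cbs (0.917) and hbn (0.912). For ap it was elB (0.954), then the zinc finger gene opa (0.945) and hbn (0.895), and for elB it was ap, then opa (0.922) and hbn (0.918). The gene hbn was among the 5 nearest of retn, Rx, ap and elB. The gene opa (odd-paired) had 202 ± 22.1 TPM in mushroom body, 7.41 ± 3.43 in antennal lobe, 1.25 ± 2.16 in type II and 33.4 ± 7.11 TPM in pooled neuroblasts (SD, n = 3 each). Among retn, Rx, ap and elB r ran from 0.809 for retn and Rx to 0.954 for ap and elB, while noc reached 0.710 with retn, 0.648 with elB, 0.451 with ap and 0.382 with Rx. The genes nearest to noc, led by Mfe2 (0.912) and RpL38 (0.866), did not include hbn, oc or opa.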

How the data were processed

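Reads per gene were deposited by the authors as counts, beside a deposited table of TPM, which followed the counts divided by one length per gene in every library when checked on 2397 genes. Tools named in the submitters' processing notes are HTSeq 0.6.1p1, STAR 2.4.0i, Bowtie2 2.1.0, cutadapt 1.7.1 and CASAVA, and builds dm3 and mm10; the sources used here do not give the role of mm10 or the use of strand, so antisense reads cannot be told apart. Positions are dm3, from the authors' annotation columns. Library sizes left out reads outside annotated genes (7.92 to 23.8%), ambiguous reads (1.03 to 1.76%) and 1 unnamed entry (at most 17 counts).

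Counts were tested with edgeR 4.0.16 in R 4.3.3 (quasi-likelihood, robust, TMM scaling, filterByExpr) in 3 fits, one each for pool, neurons and glia (9855 genes), the 4 standard neuroblast groups (9249) and the 3 mushroom body groups (8766). Adjusted p is Benjamini-Hochberg over all tested genes, called below 0.05. The fits were tried on simulated data, with a common spread for all genes and added changes larger than many of those given here. That trial does not cover smaller changes. Alternatives were other scalings (RLE, or spike-in counts per cell), no count filter, DESeq2 1.42.0, limma 3.58.1 on log2(TPM + 1), a replicate block and each library left out in turn. Named were the 5 genes, up to 4 called genes of each list (all genes of lists of 5 or fewer), the 5 nearest in pattern with a group mean of at least 20 CPM, and the 2 nearest genes on each side; of the last 2 sets, those not called are partly given as counts. The genes and lists were chosen with earlier results of these data known. Sequences are not shown.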

Additional observations from a re-analysis of the deposited data

How the results depend on the processing

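Scaling decided most. With spike-in counts per cell, 2 of the 5 genes passed in pool over neurons, 5 in pool over glia, 4 in antennal lobe over type II, 5 in wash over standard and 3 in wait over wash, and 20 pathway genes passed in mushroom body over type II neuroblasts. It turned ap, elB and noc to 3.31, 2.87 and 3.40 in pool over glia, retn and ap to -1.24 and -0.20 in antennal lobe over type II neuroblasts, Rx, ap and elB to 0.28, 0.61 and 1.69 in pool over neurons, elB and noc to 1.18 and 1.24 in neurons over glia, elB to 0.08 in type II over the pool, Rx and noc to 0.08 and 0.07 in wait over standard, and lid to -1.01 and noc to -0.14, -1.28 and -0.46 in the mushroom body comparisons. The median log2 change of all genes under it was 1.94 for pool over neurons, 1.52 for neurons over glia, -1.06 for antennal lobe over type II, -0.28 and 0.78 for antennal lobe and type II over the pool, 0.13 for wait over standard and -0.63 for wait over wash. Without the count filter 1 passed in pool over neurons, 1 in antennal lobe over type II and 1 in wash over standard. DESeq2 passed 1 in pool over neurons and 1 in wash over standard, and limma 1 over neurons and 2 over glia. Leaving out libraries gave 0 to 1 in antennal lobe over type II, in pool over glia and in pool over neurons. The replicate block left 0 in pool over glia, where Rx had adjusted p = 0.0849 by edgeR, and kept the other counts within 1.5 times. Deviations of same-numbered libraries from their group means correlated at r = -0.0871 to 0.123. With so few libraries per group, this cannot tell whether the numbers mark a shared day or dissection. Each gene of 1 to 3 counts in a group is limited by depth.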
